A study of Mus musculus with 9 samples.

Results

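The genes described here lengthen and desaturate long-chain fatty acids, among them polyunsaturated ones, in the endoplasmic reticulum. They are the desaturases Fads1, Fads2 and Scd2, the elongases Elovl1, Elovl2, Elovl3 and Elovl5, and the reductases Hsd17b12 and Tecr, 9 of the 34866 genes in the deposited tables, chosen by symbol. All 9 passed the filter on low counts. The livers came from 9 male wild-type C57BL/6J mice, 3 in each of 3 groups. MG mice spent 30 days in microgravity on the International Space Station, A1G mice spent the same 30 days there in cages centrifuged to artificial gravity of 1 g, and GC mice were kept on Earth in the same type of cage with the same diet. Both flown groups went through launch, return and transport before dissection on Earth, and A1G mice were without the centrifuge on the way up and down. The GC experiment was run after the flight at another site and at lower carbon dioxide, so spaceflight cannot be told apart from these differences. Each mouse gave 1 library, from a homogenised piece of liver. In such bulk RNA, fewer cells of a type and less RNA per cell cannot be told apart.

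The elongation cycle lengthens an acyl-CoA in turns of condensation, reduction, dehydration and a second reduction. An ELOVL enzyme catalyses the condensation and decides which acyl chains are lengthened, whereas Hsd17b12 (3-ketoacyl-CoA reductase) and Tecr (trans-2-enoyl-CoA reductase) serve the reductions for all chains. Desaturases place double bonds between the elongation steps, and from dietary linoleic and alpha-linolenic acid the liver in this way makes arachidonic, eicosapentaenoic and docosahexaenoic acid, which go into phospholipids and lipoproteins.

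In MG livers, 6 of the 9 genes fell relative to GC: Fads1, Fads2, Elovl3, Elovl5, Hsd17b12 and Tecr. Elovl3 fell by 2.57 on the log2 scale, Elovl5 by 1.40, Fads2 by 1.33 and Fads1 by 1.02, and the reductases changed least, Tecr by -0.54 and Hsd17b12 by -0.46. Among all 13193 genes tested, 2.15% were called lower in this comparison. In A1G livers only Fads2 fell relative to GC under the same test, by 0.64 on the log2 scale, where 0.47% of all genes were called lower. Between MG and A1G no gene of the 9 passed edgeR's test, where 0.0227% of all genes were called lower.

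**Figure D1:**
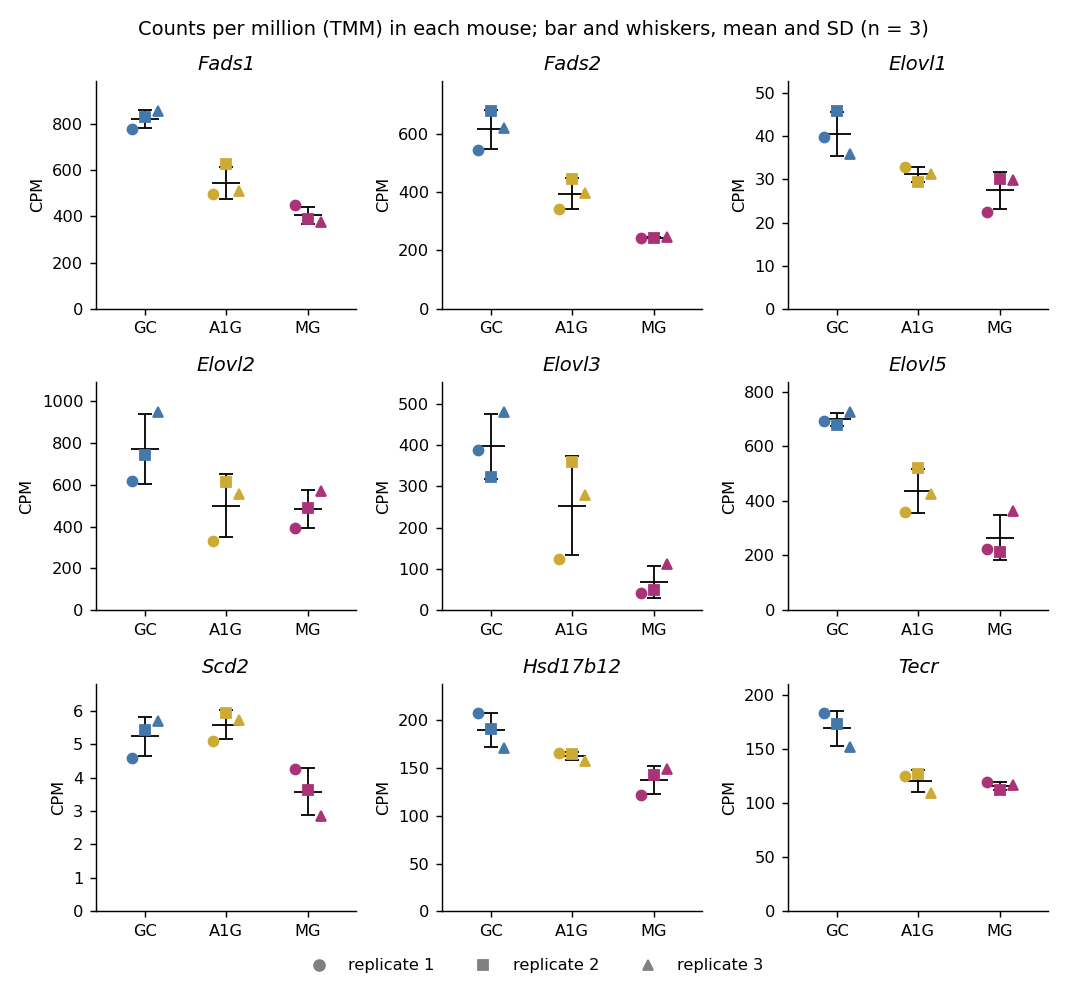
CPM (counts relative to library size, with library sizes scaled by the trimmed mean of M-values, TMM) of the 9 genes in each of the 9 livers, with each vertical axis from 0. Points are mice, shaped by replicate number, and the bar and whiskers are the mean and SD of 3 mice. The MG mice lie below the GC mice for every gene, and Fads2 sits near 244 CPM in all 3 MG mice.

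On the mouse genome GRCm38 (GENCODE M21), 4 of the genes lie on chromosome 19. Fads1 (chr19:10182888-10196877, plus strand) and Fads2 (chr19:10062765-10101746, minus strand) are neighbours read in opposite directions, with starts 81.1 kb apart. Scd2 (chr19:44293674-44306864, plus strand) and Elovl3 (chr19:46131897-46135694, plus strand) lie further along it. Elovl1 is at chr4:118428093-118432953 on the plus strand, Elovl2 at chr13:41182381-41220405 on the minus strand and Elovl5 at chr9:77917364-77984519 on the plus strand. Hsd17b12 is at chr2:94032689-94157964 and Tecr at chr8:83571698-83607971, both on the minus strand. All 9 are protein-coding genes.

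Promoter windows from RefSeq (GRCm38.p6), reaching from 250 bases before the transcription start to 50 bases after it, were matched by symbol for 6 of the 9 genes. Those of the 4 matched genes that fell in MG are printed 5′ to 3′ on the strand of the gene, because these are the stretches that the members lower in MG can be compared by. Capitals mark every match, on either strand, to 6 motifs: the GC box GGGCGG, the box of the factor NF-Y, CCAAT, the E-box with letters CACGTG, the nuclear receptor half-site with letters AGGTCA, the TATA box with letters TATAAA, and the letters TCACNCCAC, which resemble sites bound by SREBP. No match of a motif printed here overlaps a match of another.
Fads2 (chr19:10101454-10101753, minus strand): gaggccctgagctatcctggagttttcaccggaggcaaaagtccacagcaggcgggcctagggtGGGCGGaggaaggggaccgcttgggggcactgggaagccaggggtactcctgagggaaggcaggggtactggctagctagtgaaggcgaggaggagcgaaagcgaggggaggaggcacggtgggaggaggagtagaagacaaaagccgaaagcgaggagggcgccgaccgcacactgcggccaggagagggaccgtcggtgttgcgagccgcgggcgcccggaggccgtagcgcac
Elovl5 (chr9:77917115-77917414, plus strand): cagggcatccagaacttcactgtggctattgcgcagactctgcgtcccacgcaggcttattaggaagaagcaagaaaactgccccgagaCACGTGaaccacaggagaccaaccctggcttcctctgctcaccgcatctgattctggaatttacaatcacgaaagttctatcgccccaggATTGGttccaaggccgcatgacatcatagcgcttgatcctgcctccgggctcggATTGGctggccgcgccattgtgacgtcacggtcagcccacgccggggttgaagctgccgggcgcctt
Hsd17b12 (chr2:94157860-94158159, minus strand): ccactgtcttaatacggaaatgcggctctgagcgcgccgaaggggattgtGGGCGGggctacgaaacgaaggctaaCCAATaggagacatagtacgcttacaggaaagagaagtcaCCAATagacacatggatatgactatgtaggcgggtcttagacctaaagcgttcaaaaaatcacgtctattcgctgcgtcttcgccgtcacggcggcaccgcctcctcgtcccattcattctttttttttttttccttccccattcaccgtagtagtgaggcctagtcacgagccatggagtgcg
Tecr (chr8:83594442-83594741, minus strand): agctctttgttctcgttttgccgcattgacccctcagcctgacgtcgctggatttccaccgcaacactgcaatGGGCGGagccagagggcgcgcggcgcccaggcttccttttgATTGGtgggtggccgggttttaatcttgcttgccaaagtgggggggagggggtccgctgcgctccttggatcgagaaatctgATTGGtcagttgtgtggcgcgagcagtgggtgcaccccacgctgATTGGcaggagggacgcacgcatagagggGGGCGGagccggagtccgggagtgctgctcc

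No motif of the set is in all 4 of these windows, although some windows have a motif in common. The Fads2 window holds a GC box at position -186 from the start and none of the other motifs. The Elovl5 window holds CACGTG at -161 and CCAAT on the opposite strand at -71 and -17. The Hsd17b12 window holds CCAAT at -174 and -134 beside a GC box at -200. The Tecr window holds CCAAT on the opposite strand at 3 positions and GC boxes on both sides of the start. That RefSeq start lies inside the GENCODE span of Tecr, whose 5′ end at chr8:83607971 is outside the window. Over all 8 windows of the 6 genes (Elovl1 and Elovl2 have a second start each), 6 held GGGCGG, against 35.66% of 32851 mouse promoter windows of this length, and 4 held CCAAT, against 37.41%. CACGTG was in 1 window, against 7.15%, and AGGTCA in 1, against 16.26%. None held TATAAA, present in 13.62% of all windows, or TCACNCCAC, present in 1.24%. A match says only that these letters are in the window.

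Fads2 encodes the desaturase that acts first on linoleic and alpha-linolenic acid. Its abundance was 545, 679 and 620 CPM in the 3 GC mice, 343, 446 and 397 CPM in A1G and 241, 244 and 248 CPM in MG. The 3 groups did not overlap, with GC highest and MG lowest. The mean fell from 615 ± 67.1 CPM (SD, n = 3) in GC to 244 ± 3.15 CPM in MG, a log2 fold change of -1.33 ± 0.13 (SE) with an adjusted p of 0.000388 in edgeR's quasi-likelihood test. A1G lay between at 395 ± 51.7 CPM, and its log2 fold change of -0.64 ± 0.13 against GC had an adjusted p of 0.0498 in edgeR. That call was lost when any 1 of 8 libraries was left out, at edgeR adjusted p of 0.0989, 0.212 and 0.0531 without GC replicates 1, 2 and 3, 0.121 and 0.155 without A1G replicates 1 and 3, and 0.0841, 0.0952 and 0.0677 without MG replicates 1, 2 and 3. Against A1G, Fads2 in MG differed by -0.69 ± 0.13 on the log2 scale, with an edgeR adjusted p of 0.0648. Without A1G replicate 1 that p was 0.0218, and without any other 1 library it ran from 0.065 to 0.236.

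Fads1 makes the last double bond of arachidonic and eicosapentaenoic acid. It stood at 778, 829 and 856 CPM in GC, 496, 624 and 510 CPM in A1G and 447, 387 and 377 CPM in MG, again with no overlap between any groups. Fads1 and Fads2 were 2 of 3 genes with this order, with Hsd17b12 the other, and 0.705% of all genes tested had it in CPM. In TPM, the deposited scale per transcript length, none of these 3 kept it, and Elovl5 alone of the 9 genes had it, against 0.235% of all genes. The log2 fold change of Fads1 was -1.02 ± 0.13 in MG relative to GC (edgeR adjusted p = 0.00156). It was -0.60 ± 0.12 in A1G relative to GC (adjusted p = 0.0561, edgeR). This p was 0.0423 without A1G replicate 2 and ran from 0.0678 to 0.212 without any other 1 library. Between MG and A1G the difference was -0.43 ± 0.12 (adjusted p = 0.263, edgeR).

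Scd2 encodes a stearoyl-CoA desaturase that makes monounsaturated fatty acids mainly in brain and other tissues outside adult liver. Its counts were low, between 39 and 143 in each library, and 6.81% of the 31-base words of its transcripts occur in other genes, most of them in Scd3. Scd3 itself had 19 counts over all 9 libraries, and how reads were shared between such genes was not tested. Scd2 measured 4.59, 5.42 and 5.69 CPM in GC, 5.11, 5.93 and 5.72 CPM in A1G and 4.27, 3.62 and 2.86 CPM in MG. All MG mice were below all others, while GC and A1G overlapped. No comparison passed edgeR's test: the log2 fold change was -0.54 ± 0.21 in MG relative to GC (adjusted p = 0.198) and -0.63 ± 0.21 relative to A1G (adjusted p = 0.322). In A1G relative to GC it was 0.09 ± 0.20, the only positive value among the 9 genes on this scale.

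Elovl5 and Elovl2 lengthen polyunsaturated chains, Elovl5 the shorter and Elovl2 the longer ones on the way to docosahexaenoic acid. Elovl5 stood at 693, 677 and 725 CPM in GC, 361, 519 and 427 CPM in A1G and 223, 212 and 362 CPM in MG. The flown mice lay below all GC mice, and MG replicate 3 reached the level of A1G replicate 1. Elovl5 fell by 1.40 ± 0.20 on the log2 scale in MG relative to GC (edgeR adjusted p = 0.00352). MG differed from A1G by -0.71 ± 0.20 (adjusted p = 0.247, edgeR). That p was 0.0498 without MG replicate 3 and ran from 0.126 to 0.579 without any other 1 library. A1G relative to GC gave -0.68 ± 0.20 (adjusted p = 0.158, edgeR).

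Elovl2 had the largest coefficient of variation of the 9 genes among the GC mice, 21.7%. It stood at 618, 743 and 949 CPM in GC, 329, 614 and 555 CPM in A1G and 391, 489 and 571 CPM in MG. All 6 flown mice were below the GC mice, narrowly so for the highest A1G and the lowest GC mouse, and the flown groups overlapped. The log2 fold change of Elovl2 relative to GC was -0.67 ± 0.23 in MG (edgeR adjusted p = 0.150) and -0.62 ± 0.23 in A1G (adjusted p = 0.251, edgeR), and neither passed. Without A1G replicate 1 the edgeR adjusted p for MG relative to GC was 0.0491, and without any other 1 library it ran from 0.137 to 0.390. MG and A1G differed by -0.05 ± 0.23 (adjusted p = 0.986, edgeR), a value whose sign depended on the mouse left out, from -0.27 to 0.13. Elovl2 and Elovl5 thus had fold changes of -0.67 and -1.40 in MG, and the mean ratio of their TPM (abundance per transcript length), Elovl5 to Elovl2, was 1.32 ± 0.252 in GC, 1.30 ± 0.239 in A1G and 0.787 ± 0.141 in MG.

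Elovl3 lengthens saturated and monounsaturated chains and is known from skin glands and brown fat as well as liver. It had the largest change of the 9 genes in MG relative to GC. Its abundance was 389, 323 and 480 CPM in GC, 123, 359 and 278 CPM in A1G and 42.2, 48.2 and 111 CPM in MG. MG mice were below all others, and A1G replicate 1 stood nearer to MG than to the other A1G mice. In MG the log2 fold change was -2.57 ± 0.41 relative to GC (edgeR adjusted p = 0.00634) and -1.92 ± 0.41 relative to A1G (adjusted p = 0.104, edgeR). The latter p was 0.0218 without A1G replicate 1 and 0.048 without MG replicate 3, and ran from 0.130 to 0.382 without any other 1 library. In A1G relative to GC the log2 fold change was -0.65 ± 0.39 (adjusted p = 0.478, edgeR), and it was -0.31 without A1G replicate 1 and -0.98 without A1G replicate 2. With a robust estimate of the prior spread the call of Elovl3 in MG relative to GC was lost (adjusted p = 0.0578, edgeR). The last 10 bases of Elovl3 overlap those of Pitx3 on the opposite strand, a small part of the 1975 exon bases of Elovl3. The library kit keeps strand, and whether the quantification used it is not given in the sources used here. The listed markers of skin and sebaceous glands summed to between 1.30 and 2.76 CPM over all 9 livers, with 3 of the 5 at 0 throughout.

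Elovl1 lengthens saturated and monounsaturated chains to the lengths found in sphingolipids. It was less abundant, at 39.8, 46.0 and 35.9 CPM in GC, 32.9, 29.4 and 31.4 CPM in A1G and 22.5, 30.0 and 30.0 CPM in MG. Every GC mouse was above every flown mouse, and the flown groups overlapped. The log2 fold change in MG relative to GC was -0.56 ± 0.14 and narrowly failed to pass (edgeR adjusted p = 0.0516). With 1 library left out it passed in 2 of 9 fits, without A1G replicate 1 (0.0459) and without GC replicate 3 (0.0365). In the other fits the edgeR adjusted p ran from 0.067 to 0.215. The A1G mice differed from GC by -0.38 ± 0.14 (adjusted p = 0.243, edgeR). The last 53 bases of the gene overlap Cdc20 on the opposite strand.

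Hsd17b12 stood at 207, 191 and 171 CPM in GC, 165, 165 and 158 CPM in A1G and 121, 143 and 149 CPM in MG, with no overlap between any groups. Its log2 fold change of -0.46 ± 0.11 in MG relative to GC passed narrowly (edgeR adjusted p = 0.0492). It was kept in 6 of 14 other analyses and when A1G replicate 1 or GC replicate 3 was left out. It was lost without GC replicate 1 or 2 (edgeR adjusted p of 0.159 and 0.168), A1G replicate 2 or 3 (0.077 and 0.0822) and MG replicate 1, 2 or 3 (0.208, 0.132 and 0.0659). A1G relative to GC gave -0.22 ± 0.11 (adjusted p = 0.400, edgeR) and MG relative to A1G -0.24 ± 0.11 (adjusted p = 0.579, edgeR).

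Tecr stood at 183, 173 and 152 CPM in GC, 125, 127 and 109 CPM in A1G and 120, 112 and 116 CPM in MG. Both flown groups were below GC and overlapped each other. In MG relative to GC the log2 fold change was -0.54 ± 0.11 (edgeR adjusted p = 0.0194), and in A1G relative to GC -0.49 ± 0.11 (adjusted p = 0.0722, edgeR). The latter p was 0.0351 without GC replicate 3 and ran from 0.102 to 0.258 without any other 1 library. The MG call was kept in 10 of 14 other analyses, and was lost without GC replicate 1 or 2 (edgeR adjusted p of 0.0711 and 0.086) and without MG replicate 1, 2 or 3 (0.0727, 0.0983 and 0.0553). MG and A1G differed by -0.05 ± 0.11 (adjusted p = 0.948, edgeR). Of the 31-base words of Tecr transcripts, 10.2% occur in other genes.

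**Figure D2:**
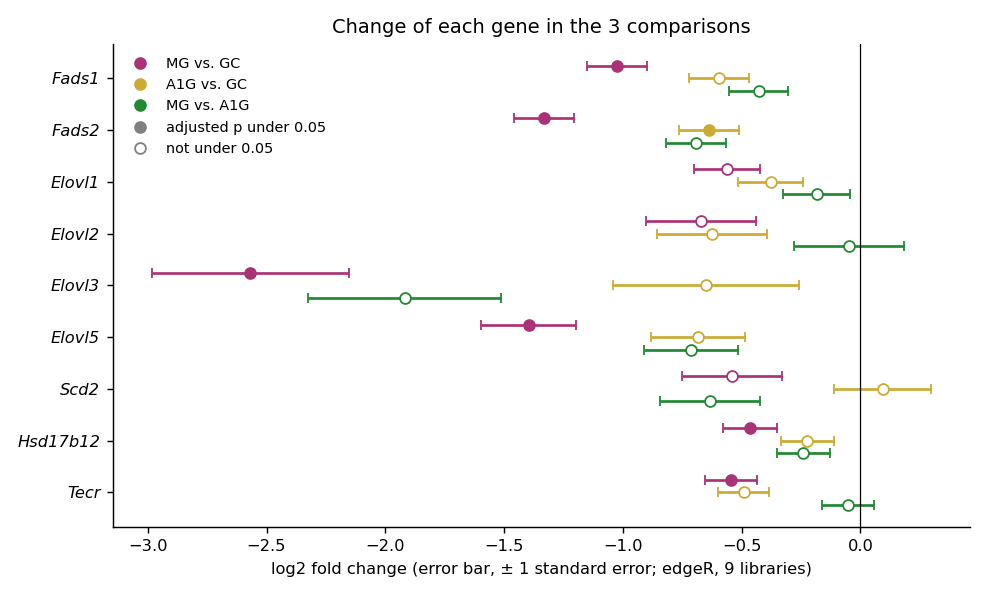
Log2 fold changes of the 9 genes from edgeR over all 9 libraries, with error bars of 1 standard error. Filled points passed an adjusted p of 0.05: 6 genes for MG against GC, 1 for A1G against GC and none for MG against A1G. All points but that of Scd2 for A1G against GC lie left of 0.

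As a group, the 9 genes had a median log2 fold change of -0.67 in MG relative to GC, where all tested genes had a median of 0.00, and all 9 values were negative. All 9 had MG mice below every GC mouse in CPM, as did 12% of all genes tested, and all 9 had an unadjusted p under 0.05, as did 10.2% of all genes in that direction. In A1G relative to GC the median was -0.60, with 8 of 9 values negative and 7 genes not overlapping, against 9.97% of all genes. An unadjusted p under 0.05 was found for 6 genes, all lower, against 7.61% of all genes. Between MG and A1G the median was -0.43, with all 9 values negative and 5 genes not overlapping, against 7.8% of all genes. Although 0 passed edgeR's adjusted test there, 5 of 9 had an unadjusted p under 0.05, all lower, against 4.61% of all genes, and DESeq2 called 2 genes on the 6 libraries compared, where it called 1.34% of all genes, and 3 on all 9, where it called 1.45%. These comparisons share mice, each group entering 2 of the 3.

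The genes did not change by equal amounts. On the CPM scale the MG mean was lowest relative to GC for Elovl3 (67.3 ± 38.3 against 398 ± 78.9 CPM), followed by Elovl5 (265 ± 83.5 against 698 ± 24.5 CPM). The reductases Hsd17b12 (138 ± 14.4 against 190 ± 18.1 CPM) and Tecr (116 ± 3.59 against 169 ± 16.1 CPM) were closest to GC among the genes that fell. Spread within a group also differed: the coefficient of variation in MG was 57.0% for Elovl3 and 31.5% for Elovl5 but 1.29% for Fads2 and 3.09% for Tecr. Among the A1G mice, replicate 1 was lowest for 6 of the 9 genes (Fads1, Fads2, Elovl2, Elovl3, Elovl5 and Scd2) and replicate 2 was highest for 7. That same replicate 1 had 3303 CPM of the peroxisomal enzyme Ehhadh, where the other A1G mice had 411 and 543 CPM and GC mice 245 to 268 CPM. The part of this in the elongase and desaturase values was not tested.

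**Figure D3:**
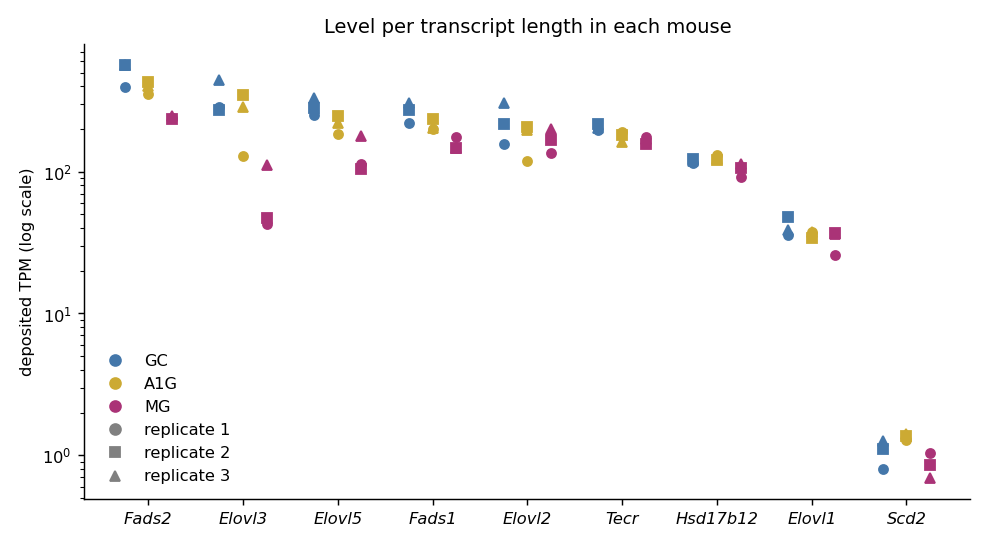
Deposited TPM of the 9 genes in each liver on a log axis, ordered by the mean over all mice, with colours for groups and shapes for replicate numbers. Fads2 had the highest mean level and Scd2, near 1 TPM, the lowest.

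Levels of different genes were compared per transcript length in TPM. Fads2 had the highest mean TPM, 382 over the 9 livers, above 97.7% of all tested genes. Elovl3, Elovl5, Fads1, Elovl2 and Tecr followed between 219 and 184 TPM, and neighbours in this order overlapped between mice. Hsd17b12 had 116 TPM and Elovl1 36.8 TPM, and Scd2 had 1.09 TPM. In GC the order was Fads2 (511 ± 100.7 TPM), Elovl3 (335 ± 95.9 TPM), Elovl5 (288 ± 41.5 TPM) and Fads1 (267 ± 43.6 TPM). In MG, Fads2 stayed highest (241 ± 4.73 TPM), Tecr (167 ± 9.52 TPM) and Elovl2 (167 ± 31.3 TPM) came next, and Elovl3 (67.3 ± 38.8 TPM) stood below Hsd17b12 (104 ± 10.2 TPM). Summed over the 9 genes, the level was 1657, 2005 and 2324 TPM in GC, 1348, 1807 and 1630 TPM in A1G and 1002, 1003 and 1204 TPM in MG. In TPM, MG was thus below both other groups, which overlapped. The sums in CPM ran from 3459 to 3996 in GC, 1980 to 2890 in A1G and 1612 to 1966 in MG, without overlap.

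The scale matters for the smaller changes. In TPM the median gene was 0.24 higher (log2) in MG and in A1G than in GC, whereas TMM scaling set that median near 0. Lower genes were 64.7% of the 439 called in MG relative to GC with TMM, 35.4% of 542 with library size as the only scaling and 18.8% of 645 in limma's fit of log2(TPM + 1). For A1G relative to GC these shares were 72.9% of 85, 34.2% of 73 and 32.5% of 80. All 9 genes had a negative value in MG relative to GC under each of these scalings. In TPM the MG and GC mice did not overlap for 6 genes (Fads1, Fads2, Elovl3, Elovl5, Hsd17b12 and Tecr), against 3.96% of all genes, and overlapped for Elovl1, Elovl2 and Scd2. Between A1G and GC, where 7 genes did not overlap in CPM, in TPM only Elovl5 and Tecr were lower without overlap, against 2.3% of all genes, and Scd2 was higher without overlap. In limma's fit of log2(TPM + 1), Elovl5 in MG relative to GC was -1.15 (adjusted p = 0.0117), Tecr -0.30 (adjusted p = 0.0993) and Hsd17b12 -0.20 (adjusted p = 0.227). Hsd17b12 in A1G relative to GC was 0.07 in that fit and -0.22 in edgeR.

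**Figure D4:**
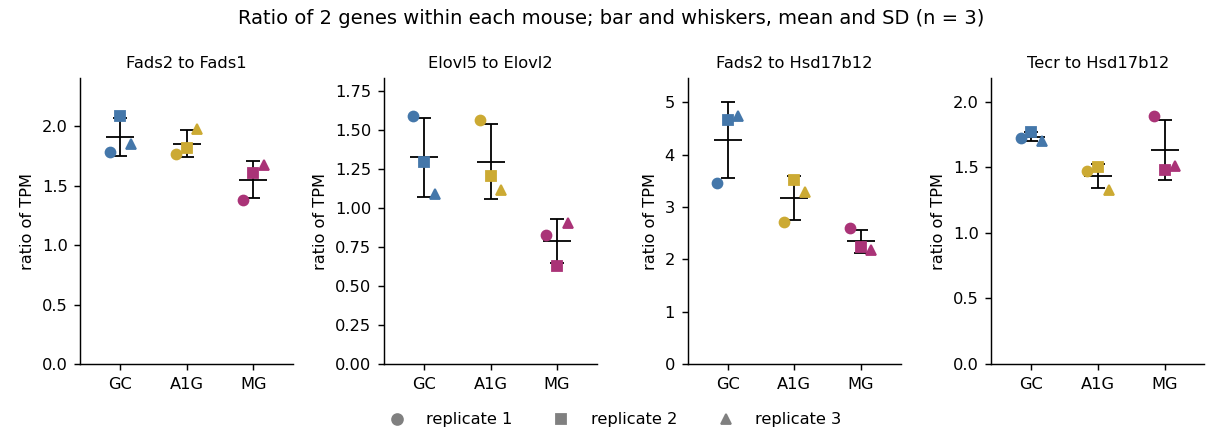
Ratios of TPM between pairs of genes within each mouse, each axis from 0, with the mean and SD of 3 mice. The Elovl5 to Elovl2 ratio of MG mice lies between 0.631 and 0.904, below all GC and A1G mice, while the Tecr to Hsd17b12 ratio of MG mice overlaps that of GC.

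Ratios within a mouse do not depend on the scaling of its library. The ratio of Fads2 to Fads1 TPM was 1.91 ± 0.161 in GC, 1.86 ± 0.110 in A1G and 1.55 ± 0.156 in MG. The ratio of Fads2 to Hsd17b12 was 4.29 ± 0.725 in GC, 3.18 ± 0.420 in A1G and 2.34 ± 0.226 in MG, and that of Elovl5 to Hsd17b12 was 2.42 ± 0.311, 1.76 ± 0.316 and 1.27 ± 0.306. In these ratios, and in Elovl5 to Elovl2, all MG mice were below all GC mice. The Tecr to Hsd17b12 ratio was 1.73 ± 0.0343 in GC, 1.44 ± 0.0924 in A1G and 1.63 ± 0.229 in MG. The ratio of Elovl3 to Elovl1 was 8.35 ± 2.88 in GC, 7.05 ± 3.42 in A1G and 2.01 ± 0.954 in MG. The 6 pairs were chosen after the values were seen. With 3 mice against 3, an exact two-sided permutation test cannot go below p = 0.1, which the MG vs. GC difference reached for each ratio but Tecr to Hsd17b12 (p = 0.4, exact permutation), and adjusted over 18 comparisons the smallest p was 0.164.

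For each gene that fell, the tested genes with the most similar pattern were taken as those with the smallest root-mean-square difference of centred log2 CPM over the 9 livers, among the 10358 genes averaging 50 counts or more. Fads2 was closest to Hes6 (0.0811), a transcriptional regulator, then to Acaca, the cytosolic acetyl-CoA carboxylase, and to Pmvk, an enzyme of the mevalonate pathway. Fads1 was closest to Pdk1, Eno1 and Gusb, at differences between 0.124 and 0.140. Elovl5 was closest to Fads2 itself (0.219), then to the glutamine transporter Slc1a5 and to Nab2. Elovl3 had no gene as near, its closest being Pitx3 (0.356), Fam198a and Fam83f. The difference was not scaled to each gene's spread, so it tends to be larger for genes that change or vary more. Pitx3 is the gene whose end overlaps that of Elovl3 on the opposite strand, and the part of this overlap in the similarity was not tested. Tecr was closest to Ap1s1, Pcyt2 and Tmem50a and Hsd17b12 to Mrpl33 and Lamtor4, all within 0.0794. Among pairs of the 9 genes, Elovl1 and Hsd17b12 (0.117), Hsd17b12 and Tecr (0.150) and Fads1 and Fads2 (0.166) were nearest.

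Around these 9 genes, 7 lists of pathway genes held 89 further genes, of which 75 were tested. In MG relative to GC, 5 of them fell and 2 rose, where 1.17% of all genes were called higher. In A1G relative to GC, 2 fell and 1 rose, where 0.174% were called higher. None was called between MG and A1G by edgeR, where 0.0758% of all genes were called in either direction and 23 of the 75 had an unadjusted p under 0.05, as did 8.97% of all genes. The median log2 fold change of the 75 was -0.04 in MG relative to GC, 0.04 in A1G relative to GC and -0.12 in MG relative to A1G.

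Of 6 tested genes of the elongation cycle outside the 9, 1 fell, Elovl6, the elongase that makes stearate from palmitate. Elovl6 stood at 348, 558 and 444 CPM in GC, 99.0, 175 and 162 CPM in A1G and 92.2, 78.0 and 94.0 CPM in MG, so the groups did not overlap. The log2 fold change was -2.35 ± 0.22 in MG (edgeR adjusted p = 0.000388) and -1.63 ± 0.22 in A1G (adjusted p = 0.0137, edgeR), both relative to GC. The dehydratases Hacd1 (-0.78 ± 0.27, adjusted p = 0.145, edgeR) and Hacd2 (-0.29 ± 0.12, adjusted p = 0.199, edgeR) did not pass in MG relative to GC.

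Among 9 tested genes of desaturation outside the 9, 2 fell in MG. Scd1, the main liver stearoyl-CoA desaturase, stood at 12362, 15938 and 15424 CPM in GC, 3931, 8298 and 5021 CPM in A1G and 538, 1947 and 1385 CPM in MG. The groups did not overlap, and Scd1 fell by 3.50 ± 0.42 on the log2 scale in MG relative to GC (edgeR adjusted p = 0.00133). For A1G the value was -1.34 ± 0.39 (adjusted p = 0.158, edgeR). Cyb5r3, the reductase that passes electrons through cytochrome b5 to the desaturases, fell in both flown groups, by 1.35 ± 0.15 in MG (edgeR adjusted p = 0.000689) and 0.97 ± 0.14 in A1G (adjusted p = 0.0214, edgeR). The mitochondrial cytochrome b5 gene Cyb5b was at -0.06 ± 0.12 in MG relative to GC (adjusted p = 0.824, edgeR) and -0.38 ± 0.12 in MG relative to A1G (adjusted p = 0.290, edgeR).

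Among 12 tested genes that activate polyunsaturated fatty acids or put them into phospholipids, 2 fell in MG relative to GC. Acsl5, an acyl-CoA synthetase, fell by 0.91 ± 0.13 on the log2 scale (edgeR adjusted p = 0.00286). Lpcat3, which puts polyunsaturated chains into phosphatidylcholine, fell by 0.81 ± 0.13 (adjusted p = 0.00556, edgeR), from 85.2 to 95.3 CPM in GC to 43.1 to 57.6 CPM in MG. The acyltransferase Agpat3 was at 0.33 ± 0.10 (adjusted p = 0.0964, edgeR). In A1G none of the 12 passed relative to GC.

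The last step of docosahexaenoic acid synthesis is a round of beta-oxidation in peroxisomes. Of 12 tested genes of that step, 1 rose: Abcd2, which carries very-long-chain acyl-CoA into peroxisomes, was at 10.3 to 13.2 CPM in GC and 22.4 to 33.3 CPM in MG (1.23 ± 0.25 log2, edgeR adjusted p = 0.0198). In A1G it was at 15.2 to 30.8 CPM (0.87 ± 0.25, adjusted p = 0.152, edgeR). Acaa1b, a peroxisomal thiolase, differed between MG and A1G by -1.80 ± 0.30 (adjusted p = 0.0648, edgeR), in a comparison that includes A1G replicate 1, the mouse of high Ehhadh. Relative to GC, Acaa1b in MG was at -1.05 ± 0.29 (adjusted p = 0.0767, edgeR).

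Of 8 tested genes of ceramide and sphingolipid synthesis, Cers6 rose in both flown groups. It encodes a ceramide synthase that prefers palmitoyl-CoA to very long acyl chains. Cers6 stood at 9.77 to 14.9 CPM in GC, 20.7 to 28.2 CPM in A1G and 18.5 to 25.9 CPM in MG, with log2 fold changes of 1.02 ± 0.19 in A1G (edgeR adjusted p = 0.0385) and 0.79 ± 0.19 in MG (adjusted p = 0.0444, edgeR). The glucosylceramide synthase gene Ugcg was at 0.50 ± 0.19 in MG (adjusted p = 0.192, edgeR) and the sphingomyelin synthase gene Sgms1 at 0.46 ± 0.17 in A1G (adjusted p = 0.260, edgeR). None of 12 tested genes of polyunsaturated fatty acid oxygenation and release passed, with Ephx1, an epoxide hydrolase, at 1.22 ± 0.35 in A1G relative to GC (adjusted p = 0.158, edgeR). Ephx1 was at 728 CPM in A1G replicate 1, 229 and 281 CPM in the other A1G mice and 137 to 198 CPM in GC. The oxygenase Cyp2j6 was at -0.58 ± 0.18 in A1G (adjusted p = 0.1896, edgeR) and the epoxide hydrolase Ephx2 at -0.44 ± 0.15 in MG (adjusted p = 0.150, edgeR), both relative to GC.

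**Figure D5:**
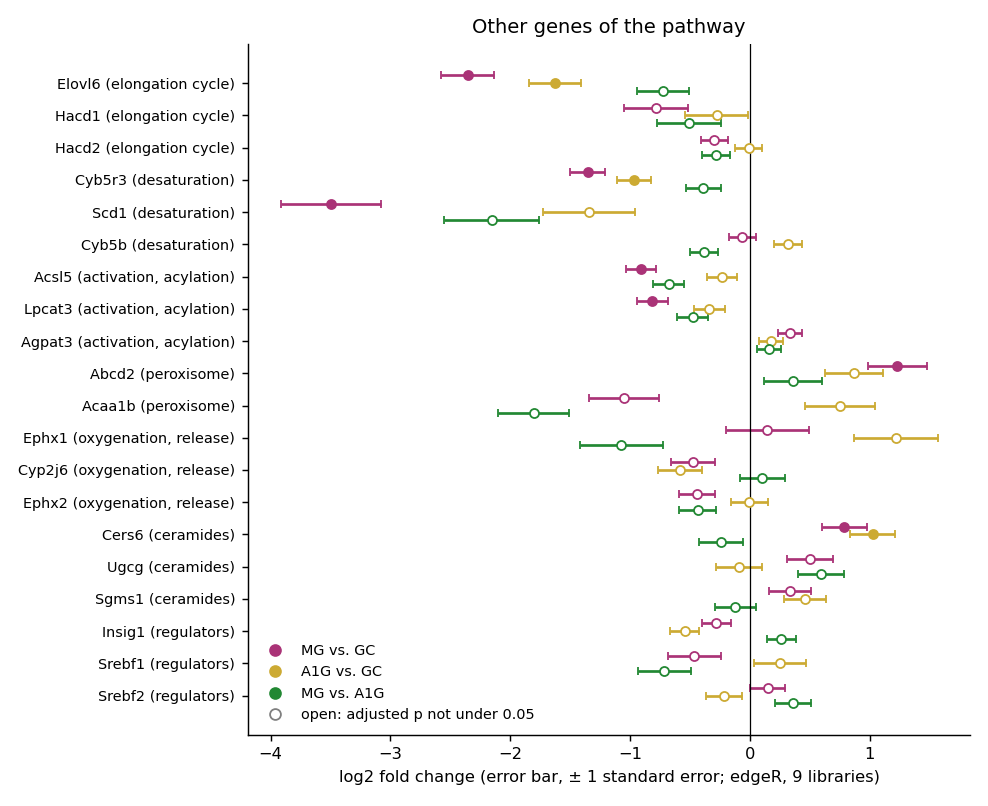
Log2 fold changes, with error bars of 1 standard error, of pathway genes outside the 9 that passed in any comparison or were among those of smallest p in their list. Filled points passed an adjusted p of 0.05: Elovl6, Cyb5r3, Scd1, Acsl5 and Lpcat3 lower and Abcd2 and Cers6 higher for MG against GC, and 3 of these (Elovl6, Cyb5r3 and Cers6) also for A1G against GC.

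None of 16 regulators of these genes passed in any comparison by edgeR, and the adjusted p was lowest for Insig1, which holds SREBP in the endoplasmic reticulum. Insig1 was at -0.54 ± 0.12 in A1G relative to GC (edgeR adjusted p = 0.0746) and -0.28 ± 0.12 in MG relative to GC (adjusted p = 0.238, edgeR). Srebf1, which encodes the regulator of fatty acid synthesis genes, was at -0.46 ± 0.22 in MG relative to GC (adjusted p = 0.289, edgeR) and -0.71 ± 0.22 in MG relative to A1G (adjusted p = 0.294, edgeR). Srebf2, its relative for cholesterol synthesis, was at 0.36 ± 0.15 in MG relative to A1G (adjusted p = 0.484, edgeR). These are transcript levels and give no measure of the processed proteins.

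The libraries held 13189515 to 23738049 estimated counts each, which limits precision for Scd2 but little for the others, whose lowest library held 389 counts. The 9 hepatocyte markers measured summed to 85106 to 91247 CPM in GC, 79481 to 86513 CPM in A1G and 77950 to 88689 CPM in MG, and none was called in any comparison. Adipocyte markers summed to 4.40 to 13.3 CPM in GC, 3.95 to 7.03 CPM in A1G and 4.32 to 5.24 CPM in MG, with 1 of the 7, Lep, at 0 in every library. Of the other lists, 1 of 7 stellate cell markers was called in MG relative to GC, Col1a1, at -1.79 ± 0.38 (edgeR adjusted p = 0.0258), and no tested marker of macrophages, endothelial cells, cholangiocytes, lymphocytes or red blood cells was called. Of 7 lymphocyte markers 2 passed the filter on low counts and were tested, of 7 adipocyte markers 2 and of 6 cholangiocyte markers 5. Red blood cell markers summed to 316 to 358 CPM in GC, 113 to 417 CPM in A1G and 142 to 251 CPM in MG. The part of these differences in the values of the 9 genes was not tested.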

How the data were processed

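Poly(A) RNA of 9 livers, 1 library per mouse, was measured by RNA-seq. The authors trimmed reads with fastp 0.19.4, quantified transcripts with Salmon 0.9.1 on GRCm38 and deposited estimated counts per gene and TPM, which are scaled to transcript length and library sum. The annotation release is not given in the sources used here. The authors' tables of comparisons, which hold their log2 fold changes, standard errors, Wald statistics and p-values, gave only gene symbols. Estimated counts, 17.1% of them not whole, were rounded. Genes passing filterByExpr of edgeR 4.0.16 (minimum count 10) were scaled by TMM and tested over all 9 libraries with the quasi-likelihood F test, Benjamini-Hochberg adjusted over 13193 genes, with a threshold of 0.05. The standard error is the log2 fold change divided by the root of F. CPM are relative to the scaled library size. Alternatives used DESeq2 1.42.0, limma 3.58.1 on log2(TPM + 1) or log2(TPM + 0.1), other scalings and filters, and libraries left out. The test was also run on independent counts simulated with the spread fitted here, which cannot check outlying mice or links between same-numbered ones. All 9 genes are named. From each pathway list the genes passing in any comparison are named and, where fewer than 3 passed, those of smallest p up to 3, and for each gene called the 3 genes of most similar pattern. A few genes that this rule names are not reported here. The genes, lists and markers were chosen with earlier results of these data known. GENCODE M21 gave coordinates and overlaps, and RefSeq the promoter windows. Libraries are separate mice, so the p-values measure the spread between mice.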

Additional observations from a re-analysis of the deposited data

How the results depend on the processing

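Of 6 calls in MG relative to GC, those of Fads1 and Fads2 held in 14 of 14 other analyses and those of Fads1, Fads2, Elovl3 and Elovl5 without any 1 library (9 of 9). The number of the 9 genes called ranged from 4 to 8 without 1 library, and was 2 with limma on log2(TPM + 1) without a filter (1.27% of all genes called). It was 8, all but Scd2, without a filter in edgeR (3.91%) and with DESeq2 on 6 or 9 libraries (6.27% and 6.64%). In A1G relative to GC the 1 call became 0 with library size as the only scaling, with the 3 limma fits, with the 6 libraries compared alone and without major urinary protein genes, became 4 without a filter (1.87% of all genes called) and with DESeq2 on 6 or 9 libraries (2.53% and 3.35%), and ranged from 0 to 2 without 1 library. In MG relative to A1G the 0 calls became 3 without a filter (0.915% of all genes called), 2 with DESeq2 on 6 libraries (1.34%) and 3 on 9 (1.45%), 1 with robust empirical Bayes (0.258%), and ranged from 0 to 2 without 1 library. The cause was not tested. Hsd17b12 in A1G relative to GC turned to 0.068 in the 3 limma fits of TPM, where the median of all genes stood at 0.21 to 0.28. Elovl2 in MG relative to A1G ranged from -0.27 to 0.13 without 1 library. Over the whole table and with all 9 libraries or the 6 compared, the 439 genes called in MG relative to GC ranged from 261 (limma on log2(TPM + 1) without a filter) to 861 (DESeq2 on 9 libraries), the 85 in A1G relative to GC from 1 to 394 under the same analyses, and the 10 in MG relative to A1G from 0 in that limma fit to 188 without a filter.

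Replicate numbers were shared between groups, and the sample labels name no pairs, so the main test did not pair the mice. The correlation of same-numbered deviations ran from -0.00818 to 0.114, and 9 of 9 libraries correlated best with their own number. These values do not settle whether the numbers mark pairs. With the replicate number as a block, 6 of the 9 genes were called in MG relative to GC (Elovl2 in, Hsd17b12 out), 1 in A1G relative to GC and 2 in MG relative to A1G (Fads2 and Elovl3), where 3.86%, 1.1% and 0.334% of all genes were called.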
